A study of Mus musculus with 8 samples.

Results

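The passage of bone marrow B cell progenitors from the early large pre-B (early LPre-B) to the small pre-B (sPre-B) stage was followed in the libraries labelled *Upf1*-cKO. These are 4 of the 8 libraries of the series, taken by their labels as 2 of early LPre-B cells and 2 of sPre-B cells, and every expressed gene was compared between the stages. UPF1 is the RNA helicase at the centre of nonsense-mediated mRNA decay (NMD), which removes transcripts with premature stop codons and some normal ones. The mice had both *Upf1* alleles floxed (Flox/Flox), 1 copy of Mb1 Cre, and 1 allele of Igh B1-8hi. Mb1 Cre is inserted in *Cd79a* and deletes loxP-flanked DNA only in the B lineage, from its earliest stages on. The control (Ctrl) mice were also *Upf1* Flox/Flox and also carried Igh B1-8hi, but had no Cre (Mb1 +/+). Igh B1-8hi is a heavy chain variable region that is already rearranged in the germline, and both genotypes therefore reached the pre-B stages with a ready-made heavy chain. The labels give no age, and the methods name age-matched adult mice, male and female.

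Pre-B cells that have made a heavy chain pair it with the surrogate light chain, encoded by *Igll1* and the *Vpreb* genes, to form the pre-B cell receptor (pre-BCR). Signals from this receptor and from the IL-7 receptor drive a burst of division in large pre-B cells. Cells then leave the cycle, become small, switch on the RAG recombinase and rearrange their light chain genes, before a complete receptor is shown on the surface of the immature B cell.

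Early LPre-B cells had been sorted as B220+, surface IgM-, CD43+, CD2- cells of high forward scatter, and sPre-B cells as CD43 low, CD25+, CD2+ cells of low forward scatter, both without lineage markers (CD3e, CD11b, CD11c, F4/80, TER-119). Totals per library lay between 68516857 and 160426338 counts over the 8 libraries. The counts covered 27179 genes, and 17700 of them passed the expression filter and were tested. Levels are counts per 1000000 of the TMM-scaled library size (CPM), and 3 counts, taken as the smallest level that can be shown, came to between 0.0217 and 0.0426 CPM. Differences are log2 fold changes (log2FC) of sPre- over early LPre-B cells, and a change was called where the *P* value of edgeR's quasi-likelihood test, adjusted by Benjamini-Hochberg over every gene in the fit, was under 0.05. The methods describe plotted data points as independent biological replicates, while the labels name no mice, and *P* values measure only the spread between these libraries. In bulk RNA, fewer cells of a type cannot be told apart from less RNA per cell.

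The gates on CD25, CD2 and CD43 were visible in the RNA. *Il2ra*, which encodes CD25, had 18.6 and 25.8 CPM in early LPre- and 481 and 532 CPM in sPre-B cells, and *Cd2* had 4.95 and 6.18 CPM in early LPre- and 149.7 and 135 CPM in sPre-B cells. *Spn*, which encodes CD43, had 119.9 and 137 CPM in early LPre- and 48.9 and 61 CPM in sPre-B cells. These genes define the sorted populations, so their changes (log2FC 4.51, 4.67 and −1.23) are no finding. The lineage gate was not visible in this way for *Itgam* (CD11b) and *Itgax* (CD11c), which rose in sPre-B cells by log2FC 2.31 and 5.70. *Cd79a* and *Pax5*, which mark the B lineage, were abundant in all 4 cKO libraries. *Cd79a*, the locus of the Cre, had 188 and 160.0 CPM in early LPre- and 405 and 325 CPM in sPre-B cells of the cKO genotype against 640.5 and 543 CPM in early LPre- and 1478 and 1602 CPM in sPre-B cells of Ctrl. *Upf1* itself had 244 and 258 CPM in early LPre- and 282 and 293 CPM in sPre-B cells of the cKO genotype and 237 and 213 CPM in early LPre- and 186 and 198 CPM in sPre-B cells of Ctrl. The loxP sites flank only some of its exons, so that a count over the whole gene does not check the deletion, and the genotype is taken from the labels. *Xist* and the Y-linked genes marked the 4 cKO libraries as female and the replicate 2 libraries of Ctrl as male, so that sex was mixed in Ctrl and not in cKO. The Ctrl libraries also entered the estimate of spread behind the cKO tests, and a fit of the 4 cKO libraries alone called 5363 rises and 5804 falls.

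In the libraries labelled cKO the transition changed the level of most genes tested. Of the 17700 genes tested, 5591 (31.6%) were higher and 5498 (31.1%) lower in cKO sPre- than in cKO early LPre-B cells. By at least 4-fold, 1297 genes (7.33%) were higher and 1158 (6.54%) lower. The median log2FC over all genes was 0.048. For 83.1% of genes the 2 libraries of a stage lay entirely above or below the 2 of the other stage. In Ctrl cells, compared in the same model, 5149 genes (29.1%) were higher and 5500 (31.1%) lower.

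Most genes that moved in 1 genotype moved the same way in the other. Of the 5149 genes higher in Ctrl sPre-B cells, 4184 (81.3%) were higher in cKO sPre-B cells, 57 were lower and 908 passed in neither direction. Of the 5500 lower genes, 4527 (82.3%) were lower in cKO, 59 were higher and 914 passed in neither direction. Of the 5591 genes higher in cKO, 74.8% were higher in Ctrl and 1348 passed there in neither direction, and of the 5498 lower in cKO, 82.3% were lower in Ctrl. Among genes higher by at least 4-fold in Ctrl, 731 of 814 (89.8%) also rose in cKO, while among those higher by at least 4-fold in cKO 927 of 1297 (71.5%) also rose in Ctrl. Among genes lower by at least 4-fold in Ctrl, 1309 of 1498 (87.4%) also fell in cKO, and among those lower by at least 4-fold in cKO 1025 of 1158 (88.5%) also fell in Ctrl. Across genes, which are not independent replicates, the changes of the 2 genotypes had a Pearson r of 0.809 and the same sign in 85.4% of genes. These 2 comparisons share no library. A direct test of the difference of the stage changes, the interaction of stage and genotype, passed for 467 genes (2.64%) with a more positive and 283 genes (1.6%) with a more negative change in cKO. The interaction counts depended on the tool and on single libraries. They were 1045 and 725 with DESeq2, 1004 and 504 with the likelihood-ratio test, 1078 and 497 without the expression filter, and 1360 and 782 with a replicate block within each genotype, added after the data had been seen. With each library left out in turn, they ran from 84, without cKO early LPre-B replicate 1, to 569, without Ctrl sPre-B replicate 1, on the positive side, and from 42 to 333, without the same libraries, on the negative side. Of the 72 genes named below for such a difference, 19 kept their call without any 1 of the 8 libraries: *Ccnd2*, *Cdkn1a*, *Dntt*, *Gadd45b*, *Snhg12*, *Ltb*, *Iglv1*, *Iglv2*, *Iglc2*, *Cacna1e*, *Pcdh9*, *Gm4827*, *Gm15448*, *Eya2*, *Tex45*, *Asb2*, *Asph*, *Shisa2* and *Aox2*. The other 53 lost it without at least 1 library, and *Atf5*, *Bbc3*, *Clec2e*, *D430019H16Rik* and *Foxo1* lost it in every such fit that tested them. With median-ratio size factors in place of TMM, 9 of the 72 no longer passed: *Atf5*, *Bbc3*, *Cdc45*, *Clec2g*, *Col5a3*, *Foxo1*, *Itgam*, *Lef1* and *S1pr1*. With replicate number as a block *Clec2g*, *Dmrta2* and *S1pr1* no longer passed, and with DESeq2 *Clec2e* and *Dscam*.

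**Figure D1:**
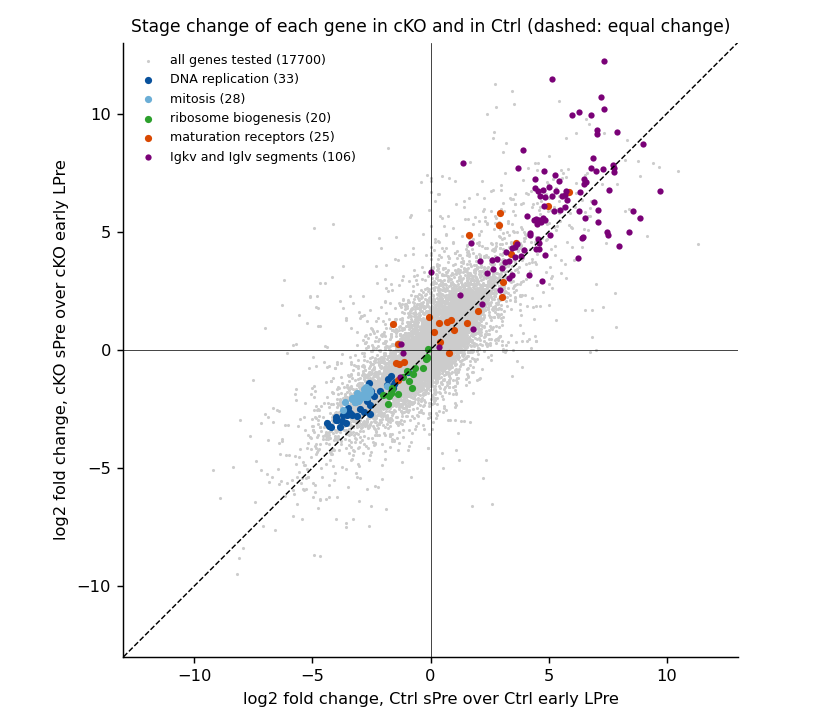
Log2 fold change of sPre- over early LPre-B cells for each of the 17700 genes tested (points), in Ctrl on the x axis and in cKO on the y axis, with 5 groups in colour and a dashed line of equal change. DNA replication and mitosis genes lie at the lower left, mostly above the dashed line, and light chain V segments at the upper right.

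Surrogate light chain transcripts fell and light chain transcripts rose in cKO cells. *Igll1*, which encodes the λ5 part of the surrogate light chain, had 213 and 227 CPM in early LPre- and 8.77 and 10.2 CPM in sPre-B cells (log2FC −4.54 ± 0.194, the error being the SE here and for all differences below; adjusted *P* = 1.06e-06 by edgeR). It lies at chr16:16860671-16863985 of mm10, next to *Vpreb1* at chr16:16868401-16869255. *Vpreb1*, its partner in the surrogate chain, had 131 and 120.3 CPM in early LPre- and 9.24 and 10.3 CPM in sPre-B cells (log2FC −3.68 ± 0.221). Its near-identical neighbour *Vpreb2* had 27.7 and 24.3 CPM in early LPre- and 0.867 and 1.06 CPM in sPre-B cells (log2FC −4.74 ± 0.277), and reads of the 2 genes may have been split between them. In Ctrl cells *Vpreb1* went from 225 and 138 to 5.71 and 4.91 CPM, and its fall was larger there (log2FC −5.09; difference of the stage changes 1.41, adjusted *P* = 0.0346 in the same test). The signalling chain *Cd79b* rose, from 261 and 284 to 1169.7 and 1081 CPM (log2FC 2.04 ± 0.149), as did *Cd79a*, *Vpreb3* and *Ighm*. Of the 7 pre-BCR genes, the 3 surrogate light chain genes thus fell and the other 4 rose, where 31.1% of all genes fell and 31.6% rose.

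Kappa light chain transcripts rose almost without exception. Of 103 *Igkv* segments tested, 98 were higher in cKO sPre-B cells, 1 was lower and 4 passed in neither direction, against 31.6% higher and 31.1% lower among all genes. Their summed level went from 69.4 and 66.2 to 701 and 625 CPM, and the median log2FC was 5.66, or 5.52 with the 6 segments without a count in early LPre-B cells placed at the 3-count level. *Igkv1-135*, the segment with the highest CPM (not scaled for length) in cKO sPre-B cells, had 0.882 and 1.76 CPM in early LPre- and 66.4 and 68.3 CPM in sPre-B cells (log2FC 5.66 ± 0.36). *Igkv8-24* had 0 counts in both cKO early LPre-B libraries and 6.13 and 5.51 CPM in sPre-B cells, at least 230-fold higher against the 3-count level per library. The exception was *Igkv1-88*, which fell from 36.5 and 27.9 to 15.3 and 13.6 CPM (log2FC −1.15 ± 0.151). The constant region *Igkc* had 298 and 280.2 CPM in early LPre- and 1106 and 1180.2 CPM in sPre-B cells (log2FC 1.98 ± 0.127), and all 5 *Igkj* segments rose. Segments of 1 family resemble each other, so that counts of single V segments are uncertain.

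Lambda V segments rose from a higher start and to a lower level in cKO than in Ctrl cells. The 3 *Iglv* segments summed to 9.25 and 8.4 CPM in cKO early LPre-B cells and 283 and 270 CPM in cKO sPre-B cells, against 1.56 and 2.96 and then 506 and 457 CPM in Ctrl. The cKO and Ctrl libraries of a stage did not overlap. *Iglv1* (chromosome 16) went from 4.36 and 4.26 to 137 and 136 CPM in cKO and from 0.796 and 1.06 to 325 and 291 CPM in Ctrl. Its log2FC of 4.98 in cKO was smaller than that of 8.40 in Ctrl (difference −3.42 ± 0.177; adjusted *P* = 4.01e-04, edgeR's quasi-likelihood test). *Iglv2* (difference −3.32) and the constant region *Iglc2* (difference −2.45) passed in the same direction. For *Iglv3*, *Iglc1* and *Iglc3* the differences were −1.67, −1.93 and −0.22 and did not pass.

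**Figure D2:**
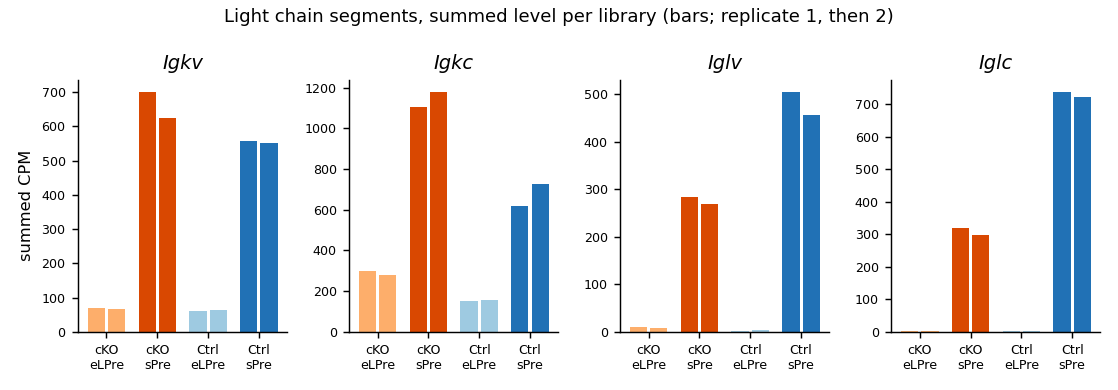
Summed level in CPM (y axes, which differ between panels) of the *Igkv*, *Igkc*, *Iglv* and *Iglc* genes in each of the 8 libraries (bars, replicate 1 then replicate 2). Both genotypes rise in every panel, kappa constant transcripts stand higher in cKO and lambda transcripts higher in Ctrl sPre-B cells.

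Both RAG genes rose while other recombination genes divided. *Rag1*, the catalytic subunit of the recombinase, had 44 and 74.9 CPM in early LPre- and 1497 and 1612 CPM in sPre-B cells (log2FC 4.71 ± 0.273; adjusted *P* = 3.32e-06). In Ctrl it went from 409 and 385 to 3508 and 2964 CPM, so that cKO cells started lower, ended lower and covered the larger fold (difference 1.68, adjusted *P* = 0.0315, same test). Its partner *Rag2* had 36.5 and 48.6 CPM in early LPre- and 131 and 138 CPM in sPre-B cells (log2FC 1.66 ± 0.132; difference from Ctrl 0.89). *Dntt*, which encodes the terminal transferase that adds bases at heavy chain joins, fell from 26.8 and 24.8 to 2.78 and 3.89 CPM (log2FC −2.94 ± 0.208). In Ctrl *Dntt* fell from 272 and 239.8 to 6.6 and 4.44 CPM, a larger change from a higher level (difference 2.59, adjusted *P* = 0.00433, same test). Polymerase mu (*Polm*), which takes part in light chain joining, had 57.7 and 69.5 CPM in early LPre- and 501 and 569.9 CPM in sPre-B cells (log2FC 3.07 ± 0.194).

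Of the 21 V(D)J recombination genes tested, 7 were higher, 10 lower and 4 passed in neither direction (median log2FC −0.26), against 31.6% higher and 31.1% lower among all genes. The end-joining genes did not move together. *Lig4*, *Xrcc4*, *Xrcc6* and *Dclre1c* (Artemis) rose by log2FC values of 0.81, 0.56, 0.69 and 0.89 (*Xrcc6* 0.46 without cKO sPre-B replicate 2). *Xrcc5*, which encodes Ku80, the partner of the *Xrcc6* product, fell from 31 and 31.8 to 8.75 and 8.53 CPM (log2FC −1.86 ± 0.109), more than in Ctrl (difference −0.91). *Nbn*, *Rad50* and *Mre11a*, the 3 subunits of the MRN break sensor, fell, with log2FC values of −3.19, −0.98 and −0.91. *Paxx*, an end-joining scaffold, stayed between 43.3 and 48.3 CPM in the 4 cKO libraries and did not pass, while it rose in Ctrl from 10.9 and 9.71 to 19.3 and 23.8 CPM (difference −1.10).

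Cell cycle genes fell in cKO cells as a block. All 33 DNA replication genes and all 28 mitosis genes tested were lower in cKO sPre-B cells, against 31.1% of all genes. The replication genes had a median log2FC of −2.64 and a range from −3.26 to −0.952, and the mitosis genes a median of −2.02 and a range from −2.54 to −1.53. *Cdc6*, a loader of the replicative helicase, had 118 and 123 CPM in early LPre- and 12.3 and 12.8 CPM in sPre-B cells (log2FC −3.26 ± 0.188; adjusted *P* = 3.24e-06 by edgeR). *Mcm5*, a subunit of that helicase, had 383 and 402 CPM in early LPre- and 37.5 and 45.1 CPM in sPre-B cells (log2FC −3.25 ± 0.219). *Mki67*, the proliferation antigen Ki-67, had 2906 and 3071 CPM in early LPre- and 661 and 749 CPM in sPre-B cells (log2FC −2.08 ± 0.295). For each of these 3 genes the 2 libraries of a stage were close together and the stages did not overlap.

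In Ctrl cells all of these genes fell too, with medians of −3.11 for replication and −3.06 for mitosis genes. Levels differed at both stages. Mitosis genes summed to 9740.0 and 10350.0 CPM in cKO early LPre-B cells, under the 13320.0 and 14420.0 CPM of Ctrl. In sPre-B cells they summed to 2290.0 and 2678 CPM in cKO and to 2226 and 1222 CPM in Ctrl, so that the cKO libraries stood close to Ctrl replicate 1 and well above Ctrl replicate 2. For 23 of the 28 genes both cKO libraries lay below both Ctrl libraries at the early stage, and for 19 of 28 both lay above at the late stage. Shares over all genes were not counted for these comparisons of genotypes. Such separation was common between the cKO stages, where it held for 83.1% of all genes. The difference of the stage changes was positive for all 28 but passed for 2, *Bub1* (1.26) and *Mybl2* (1.43). Among the 33 replication genes it was positive for 30 and passed for 3, *Mcm7* (1.20), *Rfc4* (0.74) and *Cdc45* (1.03). Among all genes 2.64% passed with a more positive change, and the median difference over all genes was 0.07. Both counts of passing genes turned on the libraries and the tool. In the alternative fits that kept all 8 libraries, each ran from 2 to 21. Without Ctrl sPre-B replicate 1, 27 mitosis and 14 replication genes passed, without cKO early LPre-B replicate 1 none of either did, and with DESeq2 19 and 12 did. *Mcm7* fell from 463 and 483 to 164 and 191 CPM in cKO and from 636 and 523 to 101 and 88 CPM in Ctrl.

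Promoters of both lists were searched for cell cycle elements, because every member fell. Promoters of S-phase genes often hold E2F sites, and those of G2 and M phase genes pair CCAAT boxes, bound by NF-Y, with a cell cycle homology region (CHR) near the start site. RefSeq windows (GRCm38.p6, the build of mm10) of 250 bases before to 50 after the first listed start were searched on both strands, and 12472 of the 17700 genes tested had one. The E2F-like motif was searched as GCGGGAA, and the NF-Y motif as CCAAT. For the CHR the letters were TTTGAA, and for the E-box bound by MYC they were CACGTG. The 3 replication genes with the largest falls among those with an E2F-like match follow, as 170 bases before to 30 after the start, 5′ to 3′, with E2F-like matches on either strand in capitals.
Cdc6 (chr11:98907981-98908180, plus strand): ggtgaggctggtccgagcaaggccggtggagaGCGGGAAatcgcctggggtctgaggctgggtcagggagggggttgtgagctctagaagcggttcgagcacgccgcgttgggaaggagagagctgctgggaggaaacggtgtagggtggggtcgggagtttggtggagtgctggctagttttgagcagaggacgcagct
Pola1 (chrX:93632126-93632325, minus strand): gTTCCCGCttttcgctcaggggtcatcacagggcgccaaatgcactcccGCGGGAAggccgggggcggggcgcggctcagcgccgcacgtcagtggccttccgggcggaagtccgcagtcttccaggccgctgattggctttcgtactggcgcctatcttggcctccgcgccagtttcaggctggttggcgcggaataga
Prim1 (chr10:128015045-128015244, plus strand): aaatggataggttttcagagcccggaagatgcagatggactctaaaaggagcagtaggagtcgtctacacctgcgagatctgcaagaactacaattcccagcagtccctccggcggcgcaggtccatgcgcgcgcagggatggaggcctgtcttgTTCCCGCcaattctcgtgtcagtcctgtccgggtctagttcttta
The 3 mitosis genes with the largest falls among those with both other elements in that stretch follow in the same way, with the CCAAT and CHR matches on either strand in capitals.
Top2a (chr11:99024160-99024359, minus strand): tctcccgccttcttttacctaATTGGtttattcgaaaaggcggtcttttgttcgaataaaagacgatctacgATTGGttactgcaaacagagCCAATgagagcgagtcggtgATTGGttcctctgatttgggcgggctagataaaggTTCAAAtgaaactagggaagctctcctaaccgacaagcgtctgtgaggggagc
Spc25 (chr2:69206184-69206383, minus strand): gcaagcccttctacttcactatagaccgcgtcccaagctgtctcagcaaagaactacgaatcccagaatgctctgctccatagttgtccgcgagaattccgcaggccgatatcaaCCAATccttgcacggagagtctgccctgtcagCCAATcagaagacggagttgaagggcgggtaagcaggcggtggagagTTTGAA
Cdca8 (chr4:124936888-124937087, minus strand): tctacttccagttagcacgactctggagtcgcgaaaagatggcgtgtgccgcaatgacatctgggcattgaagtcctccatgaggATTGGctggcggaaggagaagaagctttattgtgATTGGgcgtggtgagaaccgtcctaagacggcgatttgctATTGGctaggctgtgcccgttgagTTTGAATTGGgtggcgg
In *Cdca8* the last CCAAT box overlaps the CHR match. *Pola1* and *Prim1* encode subunits of the polymerase that primes replication and had log2FC values of −2.77 and −2.77. *Top2a*, the topoisomerase that untangles sister DNA, had 1770.1 and 1867 CPM in early LPre- and 355 and 433 CPM in sPre-B cells (log2FC −2.21 ± 0.298). *Spc25*, a kinetochore subunit, and *Cdca8*, a subunit of the chromosomal passenger complex, had log2FC values of −2.19 and −2.15.

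An E2F-like match was found in 10 of the 26 replication windows (38.5%) and 0 of the 22 mitosis windows, against 7.91% of the windows of all genes tested and 4.66% of all RefSeq windows. A CHR match was found in 16 of 22 mitosis windows (72.7%) and 4 of 26 replication windows (15.4%), against 12.6% and 18.1%. CCAAT was found in 72.7% of mitosis and 65.4% of replication windows, against 38.5% of all genes tested and 37.9% of all windows. In 15 of the 22 mitosis windows a CHR match lay between 30 bases before the start and the end of the window, which holds for 2.36% of the windows of all genes tested. This region was chosen after the positions had been seen. Over the whole transition, E2F-like matches were in 13.5% of the windows of genes lower by at least 4-fold and 3.05% of those higher by at least 4-fold. CACGTG was in 9.9% and 5.84% of these windows, against 9.5% of all genes tested. These are counts of letters, and no binding was measured.

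**Figure D3:**
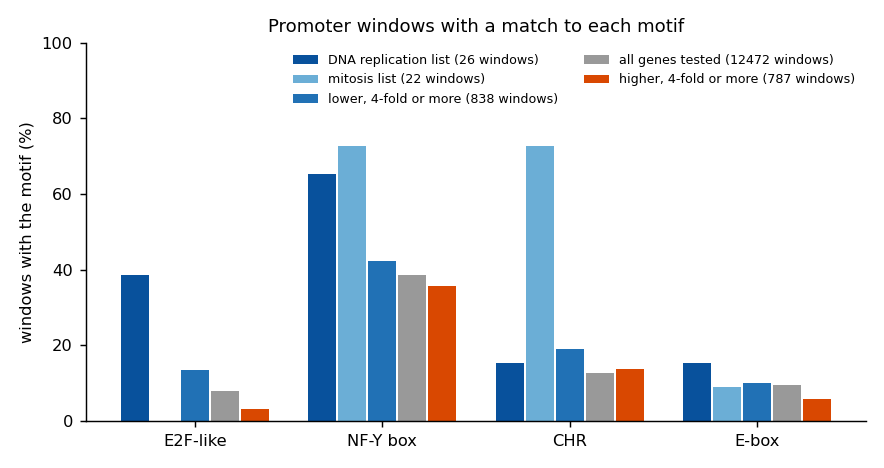
Percentage of promoter windows (y axis) with a match to 4 motifs (x axis) for the DNA replication and mitosis lists, genes changed by at least 4-fold in either direction in the cKO transition, and all genes tested. E2F-like matches were most frequent in the replication list and CHR matches in the mitosis list.

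Among the regulators of the cycle, 16 of the 17 cyclins, CDKs and their partners tested were lower and 1 higher (median log2FC −2.01, and −2.82 in Ctrl), where 31.1% of all genes were lower and 31.6% higher. *Cdk6*, the kinase of G1 cyclins, had 108 and 126 CPM in early LPre- and 14.3 and 16.1 CPM in sPre-B cells (log2FC −2.94 ± 0.109). *Ccne1*, the cyclin of the G1 to S transition, had 56.3 and 59.2 CPM in early LPre- and 5.85 and 6.23 CPM in sPre-B cells (log2FC −3.26 ± 0.199), and *Ccnd3*, the main D-type cyclin of pre-B cells, had 1381 and 1068 CPM in early LPre- and 464 and 385 CPM in sPre-B cells (log2FC −1.53 ± 0.191). In the alternative fits that kept all 8 libraries, 1 to 8 of the 17 members passed with a more positive change than in Ctrl. In the fit reported here *Ccnd2* was the only member that did. It had 333 and 257 CPM in early LPre- and 227 and 158 CPM in sPre-B cells of the cKO genotype (log2FC −0.62 ± 0.225; adjusted *P* = 0.0398), while in Ctrl it went from 168 and 145 to 18.1 and 12.1 CPM (log2FC −3.37). Both cKO sPre-B libraries thus stood far above both Ctrl sPre-B libraries, and the difference of the stage changes was 2.76 ± 0.326 (adjusted *P* = 0.00612, edgeR's quasi-likelihood test). With each cKO library left out in turn, the cKO log2FC of *Ccnd2* lay between −0.90 and −0.38, and its fall did not pass without early LPre-B replicate 1 or sPre-B replicate 2. *Ccnd1*, the member that rose, had 5.18 and 5.38 CPM in early LPre- and 9.66 and 9.3 CPM in sPre-B cells (log2FC 0.84 ± 0.157).

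Inhibitors of the cycle moved both ways. Of 15 tested, 7 rose, 3 fell and 5 passed in neither direction, where 31.6% of all genes rose and 31.1% fell. The antiproliferative genes *Btg1* and *Btg2* had the largest increases, *Btg1* with 188 and 210.4 CPM in early LPre- and 1775 and 1791 CPM in sPre-B cells (log2FC 3.16 ± 0.142) and *Btg2* with 65.1 and 90.0 CPM in early LPre- and 756 and 782 CPM in sPre-B cells (log2FC 3.31 ± 0.168). *Cdkn1b*, which encodes p27, had 72.1 and 77.2 CPM in early LPre- and 181 and 178 CPM in sPre-B cells (log2FC 1.27 ± 0.0849). *Cdkn1a*, which encodes p21, instead fell from 58 and 55.5 to 21.1 and 17.4 CPM (log2FC −1.56 ± 0.146). Its fall was smaller than in Ctrl, where it went from 49.4 and 44.7 to 4.54 and 3.5 CPM (difference 1.99 ± 0.208, adjusted *P* = 0.00384, same test). *Rbl1*, the pocket protein p107, fell (log2FC −1.63, difference from Ctrl 0.91). In the E2F family 7 of 10 members fell, among them *E2f1* (−2.65), *E2f3* (−2.52) and *Tfdp1* (−2.75), none rose, and *E2f2* stayed between 490.4 and 554 CPM in the 4 cKO libraries.

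Genes of ribosome biogenesis and glycolysis fell as well. *Myc*, which drives cell growth, had 111 and 86.1 CPM in early LPre- and 7.27 and 5.25 CPM in sPre-B cells (log2FC −3.98 ± 0.211), and in Ctrl it went from 60.9 and 48.1 to 2.27 and 1.99 CPM. Its antagonist *Mxd4*, which represses MYC targets with MAX, had 11.7 and 15.5 CPM in early LPre- and 76.1 and 82.4 CPM in sPre-B cells (log2FC 2.54 ± 0.137; difference from Ctrl 0.96), while *Max* did not pass. Of the 11 genes of this network 6 rose and 2 fell, against 31.6% and 31.1% of all genes here and for the lists that follow. Of 20 ribosome biogenesis genes 19 fell and none rose (median log2FC −1.25, Ctrl −0.94), with *Nop58* at 201 and 199.97 CPM in early LPre- and 40.0 and 42.6 CPM in sPre-B cells (log2FC −2.28 ± 0.101) and *Ncl*, nucleolin, at 707 and 676 CPM in early LPre- and 196 and 195 CPM in sPre-B cells (log2FC −1.82 ± 0.118). *Nop56*, which encodes a core protein of box C/D snoRNPs and hosts snoRNAs in its introns, fell from 373 and 359 to 117 and 122 CPM and in Ctrl from 158 and 147 to 83.4 and 91.5 CPM, with a more negative change in cKO (difference −0.81). Of 18 glycolysis genes 16 fell and none rose (median −1.36, Ctrl −0.98). *Ldha*, lactate dehydrogenase, had 283 and 258 CPM in early LPre- and 46.7 and 44.1 CPM in sPre-B cells (log2FC −2.57 ± 0.166), and *Gapdh* had 246 and 188 CPM in early LPre- and 44 and 39.4 CPM in sPre-B cells (log2FC −2.38 ± 0.158). *Pfkl*, a phosphofructokinase, fell more than in Ctrl (difference −0.87). *Aldoa*, an aldolase, had 118 and 100.2 CPM in early LPre- and 87.9 and 77.3 CPM in sPre-B cells and did not pass in cKO, and its change was also more negative than in Ctrl (difference −1.02). The test of the difference passed for 1 of 20 ribosome biogenesis and 2 of 18 glycolysis genes, all with a more negative change in cKO, which 1.6% of all genes had. Each of them lost the call without at least 1 library. In the alternative fits that kept all 8 libraries, 1 to 4 ribosome biogenesis and 2 to 4 glycolysis genes passed in that direction.

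**Figure D4:**
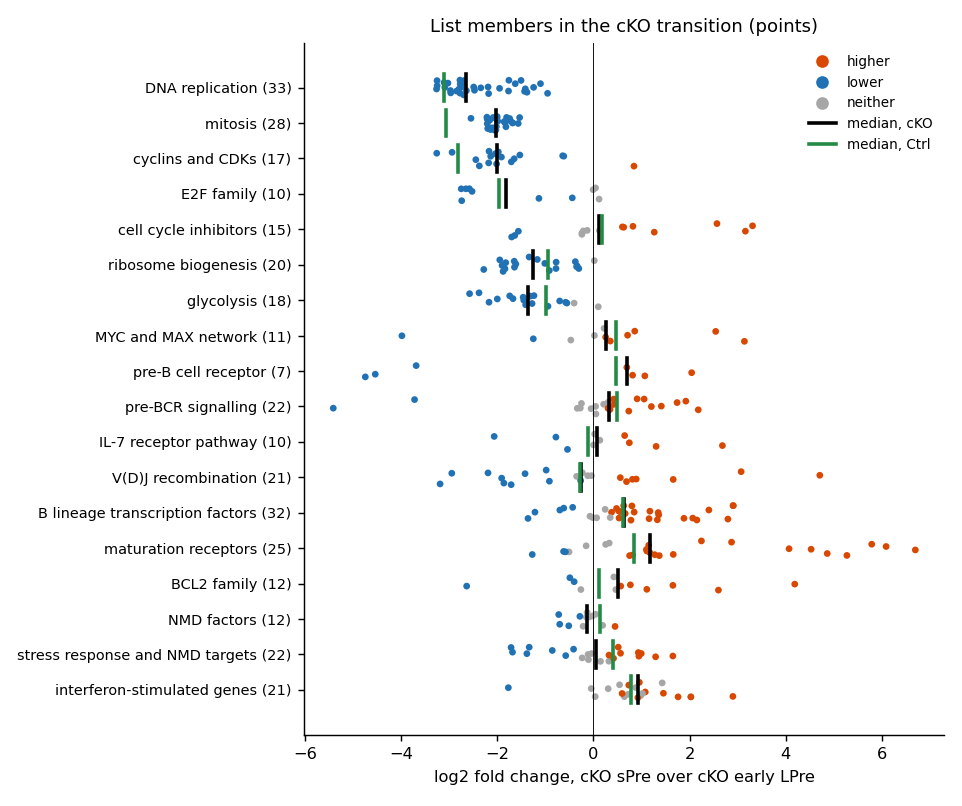
Log2 fold change of cKO sPre- over cKO early LPre-B cells (x axis) for the members of 18 gene lists (rows, number tested in brackets), coloured by whether they were higher, lower or neither, with the list medians in cKO (black) and Ctrl (green). Replication, mitosis, ribosome biogenesis and glycolysis lists lie below 0, and maturation receptors and B lineage transcription factors mostly above 0.

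Transcription factors of the B lineage rose in the majority. Of 32 tested, 22 were higher, 5 lower and 5 passed in neither direction (median log2FC 0.65, Ctrl 0.63), against 31.6% higher among all genes. *Foxo1*, which drives RAG expression and quiescence, had 114 and 119.6 CPM in early LPre- and 533 and 503 CPM in sPre-B cells (log2FC 2.15 ± 0.103), a larger change than in Ctrl (difference 0.62, adjusted *P* = 0.0468, edgeR's quasi-likelihood test). That difference did not pass whichever library was left out (adjusted *P* between 0.0821 and 0.184 by edgeR), nor with median-ratio size factors. *Ikzf3*, the Aiolos factor induced by pre-BCR signals, had 176 and 188 CPM in early LPre- and 1002 and 924 CPM in sPre-B cells (log2FC 2.40 ± 0.122). *Klf2*, linked to quiescence, had 36.5 and 43.9 CPM in early LPre- and 304 and 298 CPM in sPre-B cells (log2FC 2.90 ± 0.159), and *Relb* and *Spib* rose by 2.80 and 2.07. *Bcl6*, a repressor that protects pre-B cells during light chain rearrangement, had 12.2 and 14.6 CPM in early LPre- and 50.3 and 48.4 CPM in sPre-B cells (log2FC 1.88 ± 0.203), while in Ctrl it went from 24 and 19 to 35.4 and 23.5 CPM (difference 1.43, adjusted *P* = 0.0301). *Lef1* fell from 130.5 and 153 to 46.9 and 63.7 CPM, less than in Ctrl (difference 0.94). The identity factors *Pax5* and *Ebf1* rose by 0.85 and 0.48 (*Ebf1* between 0.43 and 0.52 with 1 cKO library left out, passing only without sPre-B replicate 1), and *Ikzf1*, *Myb* and *Runx1* had log2FC values of −0.01, −0.07 and 0.07 and did not pass.

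Among signalling genes, members of the same families moved in opposite directions. *Syk*, the kinase of the pre-BCR, had 615 and 738 CPM in early LPre- and 2556 and 2576 CPM in sPre-B cells (log2FC 1.92 ± 0.165), and its T cell relative *Zap70* fell from 25.8 and 34.5 to 0.423 and 0.967 CPM (log2FC −5.41 ± 0.384). Among SRC kinases *Lyn* rose by 1.41 and *Lck* fell from 58.1 and 58.6 to 4.37 and 4.49 CPM (log2FC −3.72 ± 0.183), further than in Ctrl (difference −1.06). The adaptor *Blnk* rose by 1.06 and *Rasgrp1*, which activates RAS, by 2.18. In all, 12 of 22 pre-BCR signalling genes rose and 2 fell, against 31.6% and 31.1% of all genes. In the IL-7 receptor pathway 4 of 10 rose and 3 fell, near those shares. *Il7r* had 443 and 513 CPM in early LPre- and 663 and 943 CPM in sPre-B cells (log2FC 0.75 ± 0.207; down to 0.47, not passing, without early LPre-B replicate 1 or sPre-B replicate 2), *Socs1*, which inhibits JAK kinases, had 3.63 and 4.69 CPM in early LPre- and 27 and 26.5 CPM in sPre-B cells (log2FC 2.68 ± 0.135), and *Socs2*, a STAT5 target, fell from 87 and 89.1 to 19.8 and 22.3 CPM (log2FC −2.06 ± 0.129). *Jak3* fell less than in Ctrl (log2FC −0.54, difference 0.85).

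Receptors of more mature B cells rose in the majority. Of 25 tested 18 rose, 3 fell and 4 passed in neither direction (median log2FC 1.17, Ctrl 0.85), against 31.6% higher and 31.1% lower among all genes. For 8 members the change was more positive than in Ctrl, and for none was it more negative, against 2.64% and 1.6% of all genes. The 8 became 2 to 6 with 1 library left out (2 without Ctrl early LPre-B replicate 1 or 2 or Ctrl sPre-B replicate 2) and 7 to 14 under the other alternatives. *Ltb*, which encodes lymphotoxin beta, had 1.26 and 0.824 CPM in early LPre- and 61.7 and 52.9 CPM in sPre-B cells (log2FC 5.79 ± 0.241) and went from 4.13 and 3.59 to 26 and 32.9 CPM in Ctrl (difference 2.86 ± 0.29, adjusted *P* = 0.00346, edgeR's quasi-likelihood test). *Fcer2a*, which encodes CD23, had 1.95 and 1.96 CPM in early LPre- and 83.8 and 29.9 CPM in sPre-B cells (log2FC 4.86 ± 0.471) and went from 1.45 and 2.28 to 6.03 and 5.33 CPM in Ctrl (difference 3.24). Replicate 1 of cKO sPre-B cells stood well above replicate 2, and both stood above every other library. *Ms4a1*, which encodes CD20, had 1.77 and 1.62 CPM in early LPre- and 255 and 96.9 CPM in sPre-B cells (log2FC 6.69 ± 0.465), with replicate 1 again the higher, and its difference from Ctrl did not pass. *Cd40*, the receptor for T cell help, had 1.01 and 1.52 CPM in early LPre- and 92.6 and 80.8 CPM in sPre-B cells (log2FC 6.09 ± 0.245; Ctrl 4.98).

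*Cxcr5*, which guides B cells to follicles, had 2.83 and 1.79 CPM in early LPre- and 6.14 and 3.78 CPM in sPre-B cells (log2FC 1.10 ± 0.323) and fell in Ctrl from 13.4 and 8.59 to 3.996 and 3.39 CPM (difference 2.68). *Cd83*, *Cd55* and *S1pr1* rose in both genotypes and more in cKO (differences 2.37, 0.89 and 0.67). *Ciita*, the activator of MHC class II genes, had 92.2 and 85.4 CPM in early LPre- and 126 and 86.3 CPM in sPre-B cells and did not pass in cKO, whereas it fell in Ctrl from 69.7 and 83.6 to 31.6 and 27.7 CPM (difference 1.62, adjusted *P* = 0.0139). The class II genes *H2-Ab1* and *H2-Eb1* fell (log2FC −0.58 and −0.62), and *H2-Aa* had 184 and 136 CPM in early LPre- and 129.9 and 95.7 CPM in sPre-B cells and did not pass. The falls of *H2-Ab1* and *H2-Eb1* did not pass without early LPre-B replicate 1 or sPre-B replicate 2 of cKO, down to −0.36 and −0.35. The rise of *Cxcr5* did not pass without early LPre-B replicate 2 or sPre-B replicate 1, down to 0.71. *Cd74*, the invariant chain, rose from 337 and 213 to 1075 and 664 CPM (log2FC 1.66 ± 0.257). *Ighd*, *Cd38* and *Cr2*, also markers of mature B cells, rose as well (1.94, 2.77 and 1.15). *Ighg2b*, a switched heavy chain constant region, had 46.5 and 24.6 CPM in early LPre- and 204 and 108 CPM in sPre-B cells (log2FC 2.13 ± 0.381) and went from 4.54 and 2.74 to 1.96 and 2.6 CPM in Ctrl (difference 2.83), and replicate 1 was the higher in both cKO stages. The summed level of the 5 mature B cell markers went from 152 and 154 to 902 and 831 CPM in cKO and from 119 and 149 to 578 and 638 CPM in Ctrl. The part that more mature cells within the gate may have in these values was not tested.

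**Figure D5:**
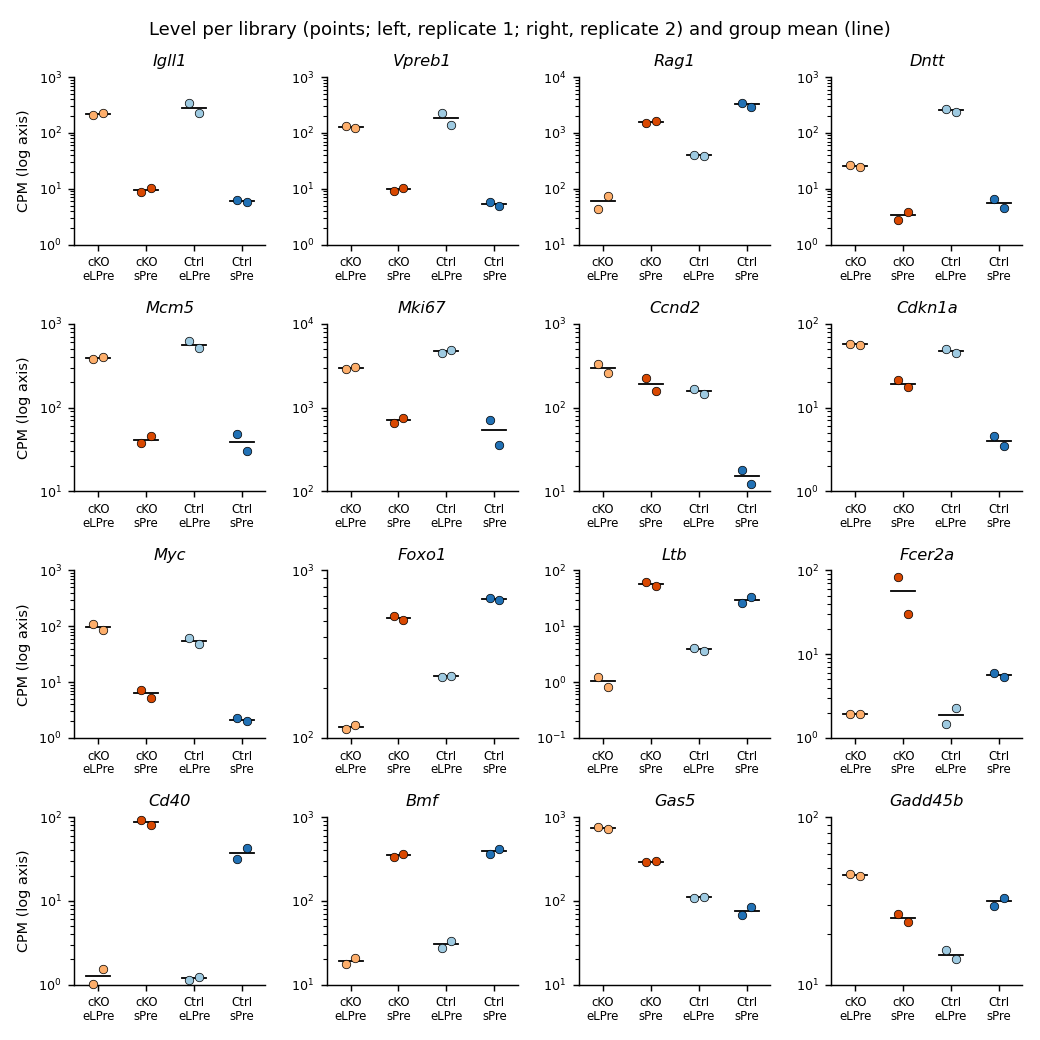
Level in CPM (log axis) of 16 genes in each library (points) with the mean of each group (line). The cKO stages do not overlap for any of the 16, and *Ccnd2* and *Cdkn1a* stand higher in cKO than in Ctrl sPre-B cells.

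Survival genes of the BCL2 family moved both ways. *Bcl2* fell from 11.5 and 10.5 to 1.8 and 1.73 CPM (log2FC −2.63 ± 0.169). *Mcl1* and *Bcl2l1*, also antiapoptotic, rose, *Mcl1* from 164 and 175 to 567 and 499 CPM (log2FC 1.65 ± 0.108) and *Bcl2l1* by 1.11. Of the proapoptotic members *Bmf* had 17.6 and 20.9 CPM in early LPre- and 334 and 367 CPM in sPre-B cells (log2FC 4.19 ± 0.155), and *Bcl2l11*, which encodes BIM, rose by 0.77. *Bbc3*, the p53 target PUMA, had 5.96 and 5.48 CPM in early LPre- and 37.5 and 31.9 CPM in sPre-B cells (log2FC 2.60 ± 0.155) and went from 1.79 and 1.47 to 5.31 and 4.82 CPM in Ctrl (difference 0.98, adjusted *P* = 0.0429, edgeR's quasi-likelihood test). Like that of *Foxo1*, the *Bbc3* difference did not pass whichever library was left out (adjusted *P* between 0.0595 and 0.159 by edgeR), nor with median-ratio size factors. In all, 6 of 12 members tested rose and 3 fell, against 31.6% and 31.1% of all genes.

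Among the known targets of NMD in the list, the 3 snoRNA host genes were higher in cKO than in Ctrl at both stages and fell in the transition. *Gas5*, *Snhg1* and *Snhg12* are snoRNA host genes whose spliced transcripts NMD degrades. *Gas5* had 762 and 727 CPM in early LPre- and 294 and 297 CPM in sPre-B cells (log2FC −1.33 ± 0.119), and went from 108 and 112 to 68.5 and 84.5 CPM in Ctrl. *Snhg12* had 389 and 386 CPM in early LPre- and 115 and 122 CPM in sPre-B cells (log2FC −1.71 ± 0.0884), and went from 14.1 and 12.7 to 7.94 and 7.94 CPM in Ctrl. *Snhg1* had a log2FC of −1.68. All 3 fell in Ctrl as well, and more steeply in cKO (differences −0.81, −0.91 and −0.96), and in both stages every cKO library stayed above every Ctrl library. *Gadd45b*, a stress-induced gene that the paper also names as an NMD target, did not follow this pattern and changed in opposite directions. It fell in cKO from 45.7 and 44.5 to 26.3 and 23.6 CPM (log2FC −0.85 ± 0.114) and rose in Ctrl from 16.1 and 14.1 to 29.6 and 33.1 CPM (difference −1.91 ± 0.162, adjusted *P* = 0.0027, edgeR's quasi-likelihood test), so that the genotypes were close at the sPre-B stage. *Atf5*, a stress response factor, fell less than in Ctrl (log2FC −1.38, difference 0.81).

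Of the 22 stress response and NMD target genes, 9 rose and 7 fell in cKO (median log2FC 0.06, against 0.048 over all genes, of which 31.6% rose and 31.1% fell). *Eif2ak3*, which encodes the endoplasmic reticulum stress sensor PERK, had the largest rise (1.65). *Atf4* and *Ddit3*, the latter also an NMD target by the paper, had log2FC values of −0.23 and 0.32 and did not pass. Of the 12 NMD factors 1 rose and 4 fell, against 31.6% and 31.1% of all genes. *Smg9* fell from 67.7 and 63.4 to 40.0 and 40.7 CPM, and *Smg5* fell too (log2FC −0.72). *Smg9* and *Smg6* had more negative changes than in Ctrl (differences −0.99 and −0.71), which 1.6% of all genes had. Each lost that call without at least 1 library, and 2 to 4 of the 12 passed in the alternative fits that kept all 8 libraries.

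Interferon-stimulated genes differed between the 2 cKO replicates at both stages. Of 21 tested 9 rose, 1 fell and 11 passed in neither direction, against 31.6% higher and 31.1% lower among all genes. Replicate 2 was above replicate 1 for 21 of 21 genes in cKO early LPre- and 20 of 21 in cKO sPre-B cells, and for 9 and 8 of 21 in Ctrl, where shares over all genes lay between 43.9% and 57.7%. *Mx2*, an antiviral GTPase, had 5.36 and 9.97 CPM in the early LPre- and sPre-B libraries of replicate 1 and 20.6 and 37.7 CPM in those of replicate 2, and its log2FC of 0.88 ± 0.653 did not pass. These calls are from the fit without a replicate block. With a block within each genotype, added after the data had been seen, 17 of the 21 rose and 1 fell, and *Mx2* passed (adjusted *P* = 0.000858 by edgeR), while with 1 block over both genotypes 10 rose, 1 fell and *Mx2* did not pass (adjusted *P* = 0.152 by edgeR). *Ifi44* had 0.441 and 0.564 CPM in replicate 1 and 4.90 and 4.60 CPM in replicate 2. *Ddx58*, which encodes the RNA sensor RIG-I, rose in both replicates, with 19.7 and 28.8 CPM in early LPre- and 175 and 188 CPM in sPre-B cells (log2FC 2.90 ± 0.171; Ctrl 2.65). *Stat2* rose by 0.93, and *Ifit2* fell (log2FC −1.77).

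The genes with the largest increases in cKO, taken by a rule on fold and counts with immunoglobulin segments and genes without a symbol left out, were at or near 0 counts in early LPre-B cells. *Gm10693* had 0 counts in both cKO early LPre-B libraries and 4.77 and 1.21 CPM in cKO sPre-B cells, at least 118-fold higher, and *B930025P03Rik*, *Efcab3*, *Ccser1*, *Gm15433*, *Gm2666*, *Spink6* and *Gm10267* were also at 0 counts before and between 27.6 and 69.6 times above the 3-count level after. *Slc47a1*, a transporter of organic cations, had 0.00919 and 0 CPM in early LPre- and 5.74 and 7.52 CPM in sPre-B cells (1 and 0 counts at the early stage) and at most 0.0473 CPM in any Ctrl library. *Gm15448* (0.0184 and 0.0308 CPM in early LPre- and 22 and 9.5 CPM in sPre-B cells, difference from Ctrl 6.53) belongs with *Pira1* and *Pira2* to the paired immunoglobulin-like receptor A genes, which lie together on chromosome 7, resemble each other closely and may share reads. *Pira1* had 0.266 and 0.416 CPM in early LPre- and 133 and 70.7 CPM in sPre-B cells (log2FC 8.20 ± 0.418) and went from 0.47 and 0.615 to 14.2 and 20.0 CPM in Ctrl (difference 3.20). *Pira2* had 0.276 and 0.623 CPM in early LPre- and 147 and 72.6 CPM in sPre-B cells (log2FC 7.90 ± 0.477; difference 3.48), with replicate 1 the higher for both.

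Among genes of at least 100 CPM, *Reln*, which encodes the extracellular protein reelin, had 0.937 and 3.1 CPM in early LPre- and 461 and 357 CPM in sPre-B cells (log2FC 7.64 ± 0.584). *Col5a3*, a collagen chain, had 1.64 and 3.66 CPM in early LPre- and 434 and 387 CPM in sPre-B cells (log2FC 7.26 ± 0.35; difference from Ctrl 1.69). *Cacna1e*, a voltage-gated calcium channel subunit, had 6.28 and 12.7 CPM in early LPre- and 1428 and 1352 CPM in sPre-B cells (log2FC 7.19 ± 0.355; difference 3.26, adjusted *P* = 0.00684, edgeR's quasi-likelihood test). *Cnr2*, the cannabinoid receptor of lymphocytes, had 0.955 and 0.993 CPM in early LPre- and 142 and 120.2 CPM in sPre-B cells (log2FC 7.07 ± 0.158; difference 0.91), and *Gm20743* had 1.26 and 2.94 CPM in early LPre- and 141 and 208 CPM in sPre-B cells (difference 2.87). These genes rose in Ctrl too, by 5.83, 5.58, 3.93, 6.16 and 3.50.

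The largest decreases by the same rule began at low levels. *Gm20740* went from 0.68 and 1.06 CPM to 0 counts, at least 30.8-fold lower. *Loxhd1* went from 9.17 and 7.24 to 0.0434 and 0 CPM, *Pdcd1*, the inhibitory receptor PD-1, from 6.58 and 9.42 to 0.065 and 0.104 CPM (log2FC −6.51 ± 0.496), and *Cd28*, a costimulatory receptor, from 2.23 and 1.61 to 0.0434 and 0.00799 CPM. *2900079G21Rik*, *Dlk1*, *Ppic*, *Megf10* and *Mir1901* also fell, with log2FC values between −7.44 and −6.22. *H2ac1*, a histone gene, had 1.67 and 80.0 CPM in early LPre- and 0.195 and 0.00799 CPM in sPre-B cells, a fall that rests on 1 early LPre-B library (log2FC between −12.12 and −4.20 with 1 library left out, passing only without early LPre-B replicate 1). Among genes of at least 100 CPM, after *Igll1*, the largest falls were those of *Nrgn* (−4.15), *Cdca7* (−3.77), *Jpt2* (−3.76), *Vpreb1*, *Dut* (−3.33), *Tmprss3* (−3.29) and *Dtl* (−3.26). *Dut* removes dUTP and *Dtl* directs protein degradation in S phase, and both had lower levels in cKO sPre-B cells, at 14.6 and 15.2 and 27.3 and 32.4 CPM. *Tmprss3* had 687 and 687 CPM in early LPre- and 62.8 and 77.7 CPM in sPre-B cells of the cKO genotype, above Ctrl at both stages, with the same log2FC (−3.29 and −3.28).

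The genes with the largest differences from Ctrl, by the rule on the interaction and with the same genes left out, were mostly low. *Il9r*, the IL-9 receptor chain, had 0.23 and 0.239 CPM in early LPre- and 62.2 and 55.7 CPM in sPre-B cells (log2FC 7.97 ± 0.317) and at most 0.319 CPM in any Ctrl library (difference 6.29 ± 0.684, adjusted *P* = 0.00433, edgeR's quasi-likelihood test). *Tex45* had 0.0827 and 0.0539 CPM in early LPre- and 6.81 and 4.05 CPM in sPre-B cells and at most 0.128 CPM in Ctrl (difference 6.10). *Retn*, which encodes resistin, had 0.0367 and 0.0616 CPM in early LPre- and 3.64 and 1.37 CPM in sPre-B cells (difference 6.48), and *Clec2g* had 0.257 and 0.6004 CPM in early LPre- and 33.3 and 19 CPM in sPre-B cells and went from 7.17 and 0.436 to 3.92 and 3.52 CPM in Ctrl (difference 5.96). The Ctrl early LPre-B libraries of *Clec2g* lay far apart, its difference was 2.74 without replicate 1 of them, and it passed in only 1 of the 8 fits that left out a library. Several of the largest positive differences came instead from genes that fell in Ctrl and were low at both cKO stages. *Eya2*, a transcriptional coactivator, went from 7.57 and 4.9 to 0.272 and 0.184 CPM in Ctrl, while in cKO it had 0.0827 and 0.0385 CPM in early LPre- and 0.152 and 0.256 CPM in sPre-B cells (difference 6.54). *Serpina3n* went from 4.33 and 2.6 to 0.177 and 0.0426 CPM in Ctrl and was detected in cKO mainly in 1 sPre-B library, at 0.360 CPM (fitted difference 10.07, which depends on the prior count and was 2.80 without cKO sPre-B replicate 2).

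On the negative side, *Asb2*, a ubiquitin ligase subunit, fell in cKO from 10.8 and 10.03 to 1.55 and 1.8 CPM and went from 8.8 and 6.72 to 11.1 and 11.1 CPM in Ctrl (difference −3.15, adjusted *P* = 0.0018, edgeR's quasi-likelihood test). *Shisa2*, *Il18rap* and *D430019H16Rik* also fell in cKO and had a more negative change than in Ctrl (differences −3.12, −3.41 and −3.32). *Ifitm1* and *Alox5* rose in Ctrl and did not pass in cKO (differences −3.27 and −3.23).

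Opposite changes of at least 2-fold in both genotypes with a difference that passed were found for 25 genes, 18 up in cKO and down in Ctrl and 7 the other way. *Pcdh9*, a protocadherin, rose in cKO from 0.266 and 0.185 to 3.75 and 1.75 CPM and fell in Ctrl from 15.2 and 7.52 to 3.16 and 3.09 CPM (difference 5.47). *Gm4827* rose from 0.487 and 0.639 to 2.57 and 2.14 CPM and fell in Ctrl from 1.11 and 1.12 to 0.118 and 0.0284 CPM (difference 5.91). *Dscam* and *Clec2e* had at most 0.275 CPM in any library and 0 or 1 count in cKO early LPre-B cells, so that their fitted differences (9.46 and 7.24) depend on the prior count. In the other direction *Asph* fell in cKO from 4.72 and 5.26 to 1.49 and 2.66 CPM and rose in Ctrl from 3.78 and 4.08 to 18.7 and 13.8 CPM (difference −3.31), and its neighbour *Clvs1* moved likewise at no more than 1.21 CPM (difference −2.96). *Ryr2*, *Aox2* and *Dmrta2* had differences of −3.61, −2.57 and −2.47, and that of *Dmrta2* did not pass with the replicate block.

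Markers of other cells were low, with exceptions. The 7 T cell markers tested summed to 11.8 and 10.4 CPM in cKO early LPre- and 3.26 and 3.485 CPM in cKO sPre-B cells. The sum fell, as did *Zap70*, *Lck*, *Cd28* and *Pdcd1*, but the members did not move together. Of the 7, 3 fell, against 31.1% of all genes, and 4 passed in neither direction. Those 4 had positive changes, and the list median was a log2FC of 0.58. The 3 that fell were *Thy1*, *Trac* and *Cd5* (log2FC −4.20, −2.98 and −0.67, the last passing in only 1 of the 4 fits that left out a cKO library, down to −0.33 without early LPre-B replicate 1), none rose, and *Cd3e*, a defining marker, had at most 1.14 CPM. The 4 NK cell markers summed to 3.11 and 1.51 and then 1.01 and 0.975 CPM. Of these 1 rose and 1 fell, against 31.6% and 31.1% of all genes here and for the markers that follow. The 10 myeloid markers summed to 50.4 and 55.7 CPM in cKO early LPre- and 212 and 244 CPM in cKO sPre-B cells, and 7 of them rose, where 31.6% of all genes did. Most of that sum was *Itgam*, which encodes CD11b and rose from 30.4 and 41.2 to 179 and 176 CPM (log2FC 2.31 ± 0.151; difference from Ctrl 0.90). *Itgax*, which encodes CD11c, had 6.42 and 7.18 CPM in early LPre- and 376 and 332 CPM in sPre-B cells (log2FC 5.70 ± 0.417) and went from 4.72 and 10.3 to 63.2 and 114 CPM in Ctrl. Cells with either protein on the surface had been excluded by the lineage gate. *S100a8* had 2.91 and 2.89 CPM in early LPre- and 5.23 and 15.5 CPM in sPre-B cells, *Lyz2* had 7.12 and 4.25 CPM in early LPre- and 11.1 and 20.3 CPM in sPre-B cells, and *Mpo* and *Elane* had at most 2.21 and 0.459 CPM in any cKO library. Erythroid markers summed to between 10.5 and 24.1 CPM and megakaryocyte markers to between 1.74 and 30.9 CPM in the cKO libraries, the latter higher in replicate 1 at both stages. The 5 plasma cell markers summed to between 48.0 and 74.7 CPM, mostly *Sdc1*, and 2 of them rose. The 4 plasmacytoid dendritic cell markers went from 12.5 and 12.6 to 36.7 and 39.1 CPM, and 3 rose. Of the 4 markers of earlier progenitors 1 rose and none fell. *Kit*, the stem cell factor receptor, had 3.84 and 2.08 CPM in early LPre- and 0.694 and 1.98 CPM in sPre-B cells and did not pass. The part of other cells in the values above was not tested.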

How the data were processed

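RNA of sorted bone marrow pre-B cells was measured by sequencing in 8 libraries, 2 for each of 4 groups (early LPre-B and sPre-B cells, labelled cKO or Ctrl). The authors deposited 1 table of raw read counts per gene, made, per the labels and the methods, with Trim Galore, HISAT2 on mm10 and featureCounts, without use of strand. Versions are not given in the sources used here. Overlapping and antisense genes and near-identical copies therefore cannot be told apart fully. Totals per library were 68516857 to 160426338 counts.

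Counts were fitted with edgeR 4.0.16 (limma 3.58.1, R 4.3.3) in 1 model of all 8 libraries with a mean per group, TMM factors, the filterByExpr filter and the quasi-likelihood test, and *P* values were adjusted by Benjamini-Hochberg over every gene that passed the filter. Contrasts were sPre over early LPre in cKO, the same in Ctrl, and their difference (interaction). SE is the absolute log2 fold change divided by the square root of F. The procedure was tested on simulated counts. Genes were named by their membership of gene lists, or as the largest changes (with a minimum of 50 counts per library at the higher stage), the largest among genes of at least 100 CPM, the largest interactions, opposite changes, and the largest of each light chain V family, with immunoglobulin segments and genes without a symbol left out of the rankings by fold and interaction. Members and lists were chosen with earlier results of these data known. Alternatives were DESeq2 1.42.0, median-ratio size factors, the likelihood-ratio test, no filter, a replicate block, the 4 cKO libraries alone, no immunoglobulin genes, and each library left out. Promoter windows are from RefSeq (GRCm38.p6). Some sort markers and some genes that these rules would name are not reported here.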

Additional observations from a re-analysis of the deposited data

Results flagged for a closer look

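The genes below were singled out because the stage change differed between cKO and Ctrl in the interaction test of edgeR's quasi-likelihood fit, at an adjusted *P* under 0.05 over all 17700 genes. Each value is the log2 fold change in cKO minus that in Ctrl. Genes that fell in both genotypes, and less in cKO, had differences of 0.81 for *Atf5*, 1.26 for *Bub1*, 2.76 for *Ccnd2*, 1.03 for *Cdc45*, 1.99 for *Cdkn1a*, 2.59 for *Dntt*, 0.85 for *Jak3*, 0.94 for *Lef1*, 1.20 for *Mcm7*, 1.43 for *Mybl2*, 0.91 for *Rbl1*, 0.74 for *Rfc4* and 1.41 for *Vpreb1*. Genes that fell in both genotypes, and more in cKO, had differences of −0.81 for *Gas5*, −1.06 for *Lck*, −0.81 for *Nop56*, −0.87 for *Pfkl*, −3.12 for *Shisa2*, −0.91 for *Snhg1*, −0.96 for *Snhg12* and −0.91 for *Xrcc5*.

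Genes that rose in both genotypes, and more in cKO, had differences of 0.98 for *Bbc3*, 3.26 for *Cacna1e*, 0.89 for *Cd55*, 2.37 for *Cd83*, 0.91 for *Cnr2*, 1.69 for *Col5a3*, 3.24 for *Fcer2a*, 0.62 for *Foxo1*, 6.53 for *Gm15448*, 2.87 for *Gm20743*, 4.87 for *Igkv8-24*, 6.29 for *Il9r*, 0.90 for *Itgam*, 2.86 for *Ltb*, 0.96 for *Mxd4*, 3.20 for *Pira1*, 3.48 for *Pira2*, 1.68 for *Rag1*, 0.89 for *Rag2* and 0.67 for *S1pr1*. The 3 lambda genes that rose in both, and less in cKO, had −2.45 for *Iglc2*, −3.42 for *Iglv1* and −3.32 for *Iglv2*. Genes that rose in cKO and fell in Ctrl had differences of 7.24 for *Clec2e*, 2.68 for *Cxcr5*, 9.46 for *Dscam*, 6.54 for *Eya2*, 5.91 for *Gm4827*, 5.47 for *Pcdh9* and 10.07 for *Serpina3n*. Genes that fell in cKO and rose in Ctrl had −2.57 for *Aox2*, −3.15 for *Asb2*, −3.31 for *Asph*, −2.96 for *Clvs1*, −2.47 for *Dmrta2*, −1.91 for *Gadd45b*, −3.61 for *Ryr2* and −0.99 for *Smg9*.

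Genes that rose in cKO and did not pass in Ctrl had differences of 1.43 for *Bcl6*, 5.96 for *Clec2g*, 2.83 for *Ighg2b*, 6.48 for *Retn* and 6.10 for *Tex45*, and those that fell in cKO and did not pass in Ctrl had −3.32 for *D430019H16Rik* and −3.41 for *Il18rap*. Of the genes that did not pass in cKO, *Ciita* fell in Ctrl (difference 1.62), and the others rose in Ctrl, with −1.02 for *Aldoa*, −3.23 for *Alox5*, −3.27 for *Ifitm1*, −1.10 for *Paxx* and −0.71 for *Smg6*. The fitted values of *Igkv8-24*, *Serpina3n*, *Dscam* and *Clec2e* depend on the prior count, since these genes had 0 or 1 count in each cKO early LPre-B library.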

How the results depend on the processing

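The numbers of genes higher and lower in cKO sPre-B cells stayed within 1.5 times of those reported under every alternative, and the shares of Ctrl changes shared by cKO cells kept within the same limit. Without each library in turn, the shares ran from 70.0% to 83.4% for higher and from 74.4% to 90.05% for lower genes. The numbers of differing stage changes, 467 more positive and 283 more negative, moved. They were 1045 and 725 with DESeq2, 1004 and 504 with the likelihood-ratio test, and 1078 and 497 without the expression filter. Without each library in turn they ran from 84 to 569 and from 42 to 333, in fits where a lone library was assumed to vary like the other groups. The replicate numbers were shared by the groups, but no source says that they mark a shared mouse or day. Deviations of the same-numbered libraries had correlations between 0.0858 and 0.395 over genes. A replicate block gave 5788 higher and 5650 lower genes in cKO, and 598 and 354 differing stage changes. A replicate block within each genotype, added after the data had been seen, gave 1360 and 782. Values of genes that did not pass changed sign in places. These were 0.0191 and 0.0806 for *Ifi44* with the block and the block within genotype, −0.0189 for *Max* with the 4 cKO libraries alone, and 0.00319 for *Ikzf1* without immunoglobulin genes. Without each cKO library in turn, log2FC ran from −0.0326 to 0.119 for *E2f2*, −1.27 to 1.45 for *Mpo*, −1.05 to 0.46 for *Alox5*, −2.25 to 2.55 for *Ifi44*, −0.109 to 0.019 for *Paxx*, −0.0449 to 0.50 for *Ciita*, −0.216 to 0.0554 for *Myb*, −0.52 to 0.15 for *Sdc1*, −0.0301 to 0.000883 for *Ikzf1*, −0.0865 to 0.118 for *Max* and −0.38 to 2.15 for *Mx2*. *Serpina3n*, which passed, ran from −2.12 to 7.25. Of the 176 named genes that passed in cKO, 164 kept their call without any 1 cKO library. The 12 others were *Ccnd2*, *Cd5*, *Clec2e*, *Cxcr5*, *Dmrta2*, *Ebf1*, *Eya2*, *H2-Ab1*, *H2-Eb1*, *H2ac1*, *Il7r* and *Serpina3n*. With the 4 cKO libraries alone *Cd5*, *Eya2* and *H2-Eb1* no longer passed in cKO, with DESeq2 *Clec2e*, and with the block, the likelihood-ratio test, no filter or no immunoglobulin genes *Cd5*. Of the 72 named differences from Ctrl, median-ratio size factors ended 9 and the replicate block 3 (*Clec2g*, *Dmrta2* and *S1pr1*). Without Ctrl sPre-B replicate 2 the difference was 0.681 for *Cdc45*, and without Ctrl early LPre-B replicate 1 it was 0.936 for *Vpreb1*. The causes were not tested. Each group had 2 libraries, which limits the precision of every value.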
